A study of Bos taurus with 8 samples.

Results

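The cytosolic ribosomal protein genes of calf rumen epithelium were read as 1 group on 8 expression arrays. Members were taken by name: every probe named RPL, RPS or RPLP with a digit, and RPSA, without the RPS6K kinases and pseudogenes. Of 15008 probes on the array, 90 probes with 83 gene names matched, and 10 RPS6K probes were left out. RPS19BP1 and RPL7L1 match the pattern but are not ribosomal proteins, so they were counted apart. This left 81 genes, 48 of the large and 33 of the small subunit. A gene was represented by its brightest probe, and 67 genes (41 large, 26 small) had a probe well above background on at least 4 arrays. The other 14 genes were not tested.

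The samples are rumen epithelium of 4 rumen-fistulated Holstein bull calves, numbered 21, 23, 24 and 25, out of 5 bulls in the feeding trial, aged 7.4 months (SD 0.3). Every calf ate a high-grain diet rich in corn flakes (control) and, as the WP diet, a version in which wood kraft pulp, a cellulose fibre, took the place of 50% of the corn flakes. Each diet lasted 14 days in a cross-over with no wash-out between them, so an animal's second sampling followed directly on its other diet, and no label says which diet came first. There was 1 array per calf and diet, which makes 4 arrays in each diet group and 4 within-calf differences.

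A ribosome is built from ribosomal RNA and a fixed set of proteins, each needed in about the same number, in a large 60S and a small 40S subunit. The mRNAs of these proteins are among the most abundant in growing cells. They share a run of pyrimidines at the 5′ end, the TOP motif, through which TOR signalling and LARP1 control their translation together. The rumen wall carries a stratified epithelium whose basal cells divide and grow, and protein synthesis takes a large part of its energy use.

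On the scale used here, a level is the log2 signal above the array's own 75th percentile. Ribosomal protein genes moved together over the 8 arrays, the large and the small subunit alike. Their values were higher on the WP array than on the control array of calves 21 and 23, nearly equal in calf 24 and lower in calf 25. The median difference over the 67 genes was 0.19 log2, against 0.09 over all 10236 probes tested. No member passed the adjusted threshold of limma, a linear model fitted across all probes with the calf as a block.

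Probe signal differed with the record a probe was designed from. Different records mostly stand for different genes, and the part of the record itself was not tested. All but 1 of the 43 genes whose brightest probe came from a RefSeq mRNA record were tested, and their probes had median signals between 874 and 88431 units over the 8 arrays. The exception was RPL3L, a muscle paralog of RPL3. Of the 27 genes read only through expressed sequence tags (ESTs, single-pass reads of cDNA clones), 14 were tested and 13 were not. The tested ones had median signals between 7.99 and 1045 units. The 11 genes read through other mRNA or Ensembl records were all tested. Across the whole array, 71.9% of RefSeq probes and 40.9% of EST probes were above background on at least 4 arrays. Signals of different probes are properties of those probes and give no order of the genes' mRNA levels.

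**Figure D1:**
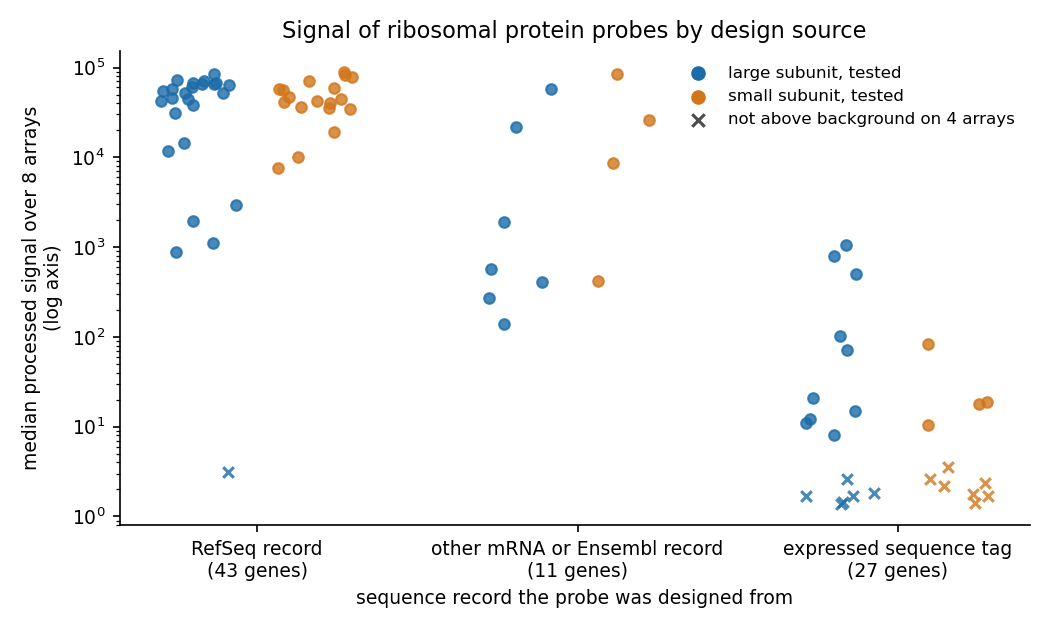
Median processed signal over 8 arrays (log axis) of the brightest probe of each of 81 ribosomal protein genes, by the record the probe was designed from; circles are tested genes, crosses are genes not above background on 4 arrays. Of 43 RefSeq-designed genes 42 were tested, against 14 of 27 designed from ESTs.

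Probes of different records also differed in signal within RPL27, RPS20 and RPS14, and their 60-base sequences are printed for that reason. In these genes the record goes with strand, chromosome or an unmapped position, so its part cannot be told apart from theirs. RPL27, a large subunit protein, has 3 RefSeq probes on the plus strand at chr19:43671380-43671439, chr19:43671469-43671642 and chr19:43671609-43671668 (UMD 3.1, as the array files give them). The last 2 overlap, and the 34 bases they share are in capitals. Its EST probe lies at chr19:43669408-43669432 on the minus strand, opposite to the others.
RPL27 RefSeq probe 1: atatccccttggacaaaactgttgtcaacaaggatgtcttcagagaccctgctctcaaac
RPL27 RefSeq probe 2: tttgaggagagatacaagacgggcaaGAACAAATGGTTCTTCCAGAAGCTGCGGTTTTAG
RPL27 RefSeq probe 3: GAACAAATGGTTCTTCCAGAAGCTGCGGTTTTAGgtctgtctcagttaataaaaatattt
RPL27 EST probe: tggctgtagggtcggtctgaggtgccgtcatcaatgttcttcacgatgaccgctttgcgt
The RefSeq probes had median signals of 23304, 48450 and 66833 units, and the EST probe, on the other strand, 393 units. All 4 were above background on all 8 arrays. For members with a single probe, the probe's strand relative to the gene was not analysed here. A probe of the opposite strand may not read the gene's mRNA, so the values of those members are values of their probes.

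RPS20 and RPS14, both small subunit proteins, each have a bright probe and a dark one. The 2 RefSeq probes of RPS20 (chr14:24955149-24955208 and chr14:24955099-24955158, minus strand) share the 10 bases in capitals and had median signals of 58848 and 71419 units. The EST probe of RPS20 has no position in the files and was above background on 0 of 8 arrays, with a median of 1.59 units. The RPS14 probe from an Ensembl transcript (chr17:51707970-51708029, plus strand) gave 25894 units, and its EST probe on another chromosome (chr7:63774863-63774922, minus strand) gave 1.98 units and was above background on 2 arrays.
RPS20 RefSeq probe 1: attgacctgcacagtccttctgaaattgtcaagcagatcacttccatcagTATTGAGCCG
RPS20 RefSeq probe 2: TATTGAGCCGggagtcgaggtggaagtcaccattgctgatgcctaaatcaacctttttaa
RPS20 EST probe: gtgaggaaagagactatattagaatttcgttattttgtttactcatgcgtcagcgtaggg
RPS14 Ensembl probe: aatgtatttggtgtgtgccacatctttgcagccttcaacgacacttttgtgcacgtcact
RPS14 EST probe: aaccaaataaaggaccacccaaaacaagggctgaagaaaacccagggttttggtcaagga
A dark EST probe thus stood beside a bright probe of the same gene name in RPS20 and in RPS14. The 2 RPS14 probes lie on different chromosomes by their given positions, and which locus each reads was not tested. For the 14 genes with no other probe, a signal near background says nothing of the mRNA. Among them are RPL30, RPL35, RPL37A, RPL38, RPL3L, RPL4, RPS3, RPS6, RPS15, RPS16, RPS18 and RPS27A. RPS6, the S6 kinase target that gave the kinase its name, was above background on 0 arrays through an EST probe of unmapped position. RPS18, often used as a reference gene for PCR, was above background on 1 array, and RPL4 likewise. RPS3 and RPS15, which lie near the mRNA entry channel and the decoding site, and RPS27A, made as a fusion to ubiquitin, were above background on 0 arrays.
RPS6 EST probe: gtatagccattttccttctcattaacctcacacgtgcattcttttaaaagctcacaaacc

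The hexamer AATAAA, the usual polyadenylation signal, lay in 15 of the 47 RefSeq-designed ribosomal protein probes (31.9%), in 3 of 30 EST-designed ones (10%) and in 9.51% of all probes. Its reverse complement TTTATT lay in 2 of the 88 ribosomal protein probes (2.27%) and in 3.40% of all probes. Both were searched on the printed strand. Ribosomal protein genes also have many processed copies in mammalian genomes, so a probe can bind the product of more than 1 locus, and the array cannot tell these apart.

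All 8 arrays lie on 1 slide in 2 rows of 4, and each row holds 2 arrays of each diet. Row 1 carries the WP arrays of calves 21 and 23 and the control arrays of calves 24 and 25, and row 2 the opposite arrays. Between 9314 and 11990 probes per array were above background and no spot was saturated. The WP array of calf 24 stood apart: its negative control spots read 4.06 units (1.2 to 1.9 on the other arrays) and its E1A control spots 40.7 units (1.36 to 1.97). The differences of RPS29, RPL8, RPS27L, RPL22L1, RPSA and RPS9 moved by over 1.5 times without calf 24 and are given both ways. The list is not complete. Those of RPS14 and RPL26L1, both close to 0, turned sign without calf 24. Others, RPS4Y1 among them, also moved by over 1.5 times and are given with calf 24 only.

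Most of the 67 genes followed 1 profile over the arrays, though 18 had r under 0.5 with it and 2 had a negative r. Their median, as the distance from each gene's mean over 8 arrays, was -0.30, -0.07, -0.12 and 0.13 log2 on the control arrays of calves 21, 23, 24 and 25, and 0.20, 0.27, -0.06 and -0.01 on the WP arrays. The control array of calf 21 was the lowest for 46 of 67 genes, and the WP array of calf 23 the highest for 32. The large and the small subunit gave nearly the same profile, with Pearson r = 0.963 and Spearman rho = 0.952 over 8 arrays, and r = 0.944 without the 2 arrays farthest from the median. These 8 points come from 4 calves on 1 slide, and the correlation is a description. The profile was not the members' alone: that of 189 other probes of like brightness had r = 0.918 with the profile of the bright members.

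**Figure D2:**
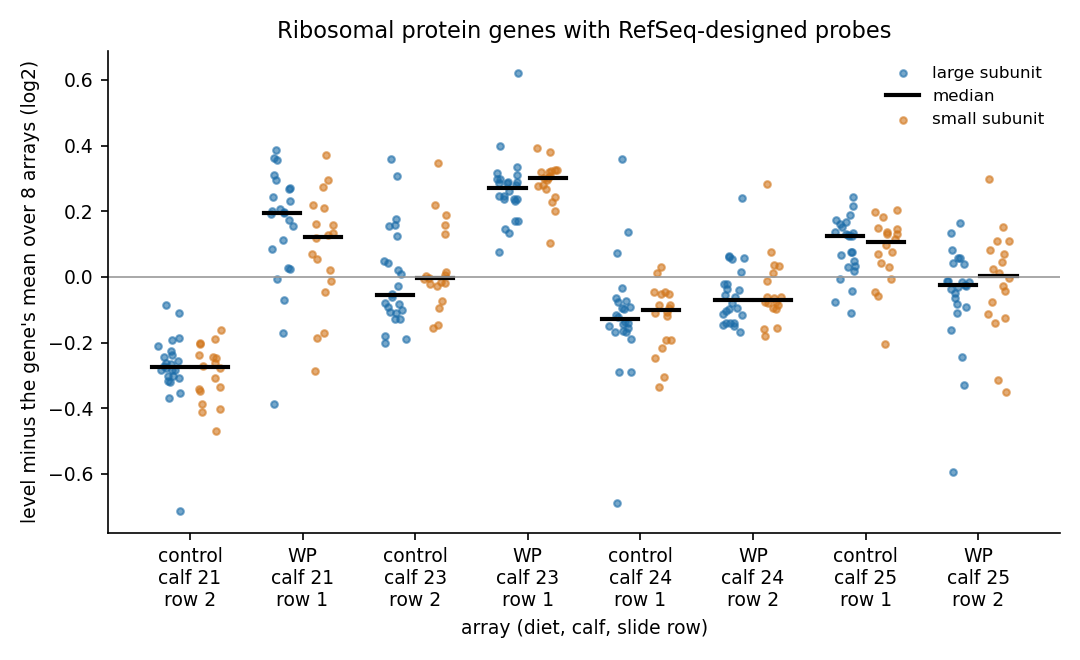
Level of each of 42 ribosomal protein genes with a RefSeq-designed probe minus its own mean over 8 arrays (log2), by array; points are genes, black bars are medians of the large and the small subunit. Both subunits are lowest on the control array of calf 21 and highest on the WP array of calf 23.

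Single pairs of genes went together as well. The median pairwise r over 8 arrays was 0.54 for all members, 0.51 within the large subunit, 0.59 within the small subunit and 0.54 between the subunits. Over all pairs of probes tested it was 0.04, and over 72 mitochondrial ribosomal proteins, which build the ribosome of that organelle, it was 0.05. On unscaled signals these contrasts were not seen: the median r was 0.49 for the members, 0.51 for all probes and 0.83 for the mitochondrial ribosomal proteins. Among the 42 genes with RefSeq probes it was 0.73, and 20 of them had r above 0.9 with the median profile. Among the 14 genes tested through ESTs it was 0.34. Of the 18 members with r under 0.5 with the median profile, 9 were read through ESTs, 7 through RefSeq records and 2 through other records.

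**Figure D3:**
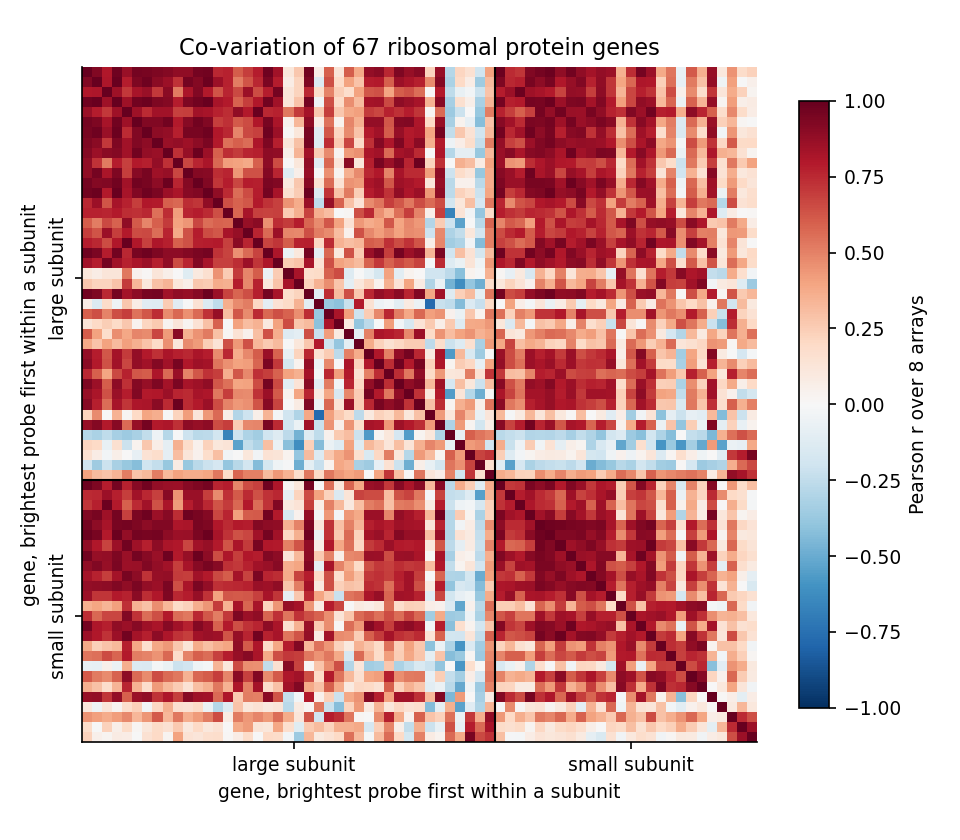
Pearson r over 8 arrays between each 2 of 67 ribosomal protein genes, ordered by subunit and, within a subunit, from the brightest to the dimmest probe (colour scale from -1 to 1). The bright genes form red blocks within and between the subunits, and the last rows of each block, the dimmest probes, are pale. The median r was 0.70 among the 55 bright genes and, over all 67 genes, 0.54 between the subunits.

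Some bright genes also kept apart from the shared profile. RPSA, the laminin-binding protein of the small subunit, stood at 5.07, 5.62, 5.30 and 5.23 log2 on the control arrays and at 4.99, 5.50, 5.56 and 4.93 on the WP arrays of calves 21, 23, 24 and 25. Its levels overlapped between the diets, and calf 23 was high on both. Its r with the median profile was 0.05. RPL13A, a large subunit protein also used as a reference gene, had r = 0.21 and RPL15 r = 0.35. RPS2 had r = 0.49 and RPS14 r = 0.45. RPL39, a small protein at the rim of the exit tunnel, had r = 0.02. Apart from RPL39, these genes went with each other. Between RPSA, RPL13A, RPL15, RPS2 and RPS14, pairwise r ran from 0.68 (RPL15 with RPSA) to 0.93 (RPL15 with RPS14). RPL39 had r = 0.08 with RPS2 and 0.54 with RPS14. These pairs were picked after the values were seen.

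A group of 5 genes read through one series of bovine mRNA records (RPLP0, RPL3, RPL10, RPL12 and RPS12) had low signals, between 140 and 570 units, but kept the shared profile, with r from 0.80 to 0.89. This grouping was made after the values were seen. Whether these 5 probes have the sense or the antisense strand of the genes was not settled, which limits what all their levels and differences below say of the mRNAs. Their median pairwise r was 0.84. Their SD over 8 arrays had a median of 0.39 log2, against 0.21 for the RefSeq-designed genes. On the scaled levels they thus kept the direction of the bright genes and varied more widely. On that scale the EST probe of RPL27 on the opposite strand did the same. Its r with the median profile was 0.94 and its SD over the arrays 0.29, against 0.15 for each RefSeq probe of that gene. Without scaling the order turned, with an SD of 0.13 for the EST probe and 0.18 to 0.26 for the RefSeq probes. The unscaled signal of RPL10 ranged from 377 to 424 units and that of RPS12 from 321 to 547. The array's 75th percentile ranged from 199 to 322 units. The part of the scaling in the r and SD of these 5 genes was not tested.

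Replicate spots give the size of the error of a single spot. RPL27, RPS13 and RPS20 are printed in 5 or 6 spots per probe, and the SD between spots of 1 probe on 1 array, pooled over arrays, was 0.037 to 0.080 log2 for their bright probes. Between arrays the same probes had SDs of 0.15 to 0.29. The 2 RefSeq probes of RPS20 correlated at r = 0.985 over 8 arrays, the 2 of RPS13 at 0.925, and the RefSeq probes of RPL27 with each other at 0.82 to 0.97. The lowest r was 0.68, between RefSeq probe 1 and the EST probe of RPL27. Between probes of 1 gene, the diet difference ranged from 0.04 to 0.19 for RPL27 and was 0.12 and 0.05 for RPS13 and 0.19 and 0.18 for RPS20.

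The diet comparison asks how the epithelium's transcripts differ when part of the grain is replaced by pulp. Of 67 members, 59 had a positive WP minus control difference (64.4% of all probes did) and 8 a negative one. The median within-calf difference of the members was highest in calf 21 at 0.49 log2, followed by 0.30 for calf 23, 0.04 for calf 24 and -0.14 for calf 25, with a mean of 0.17 ± 0.28 (SD, n = 4 calves). All probes had medians of 0.12, 0.03, 0.14 and -0.00024 in the same calves. Members higher on WP numbered 62 of 67 for calf 21, 58 for calf 23, 47 for calf 24 and only 15 for calf 25. The 4 calves thus did not share a direction, and the spread between them exceeded the mean. The large subunit had a median of 0.19, the small subunit 0.18, and they differed by 0.01.

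**Figure D4:**
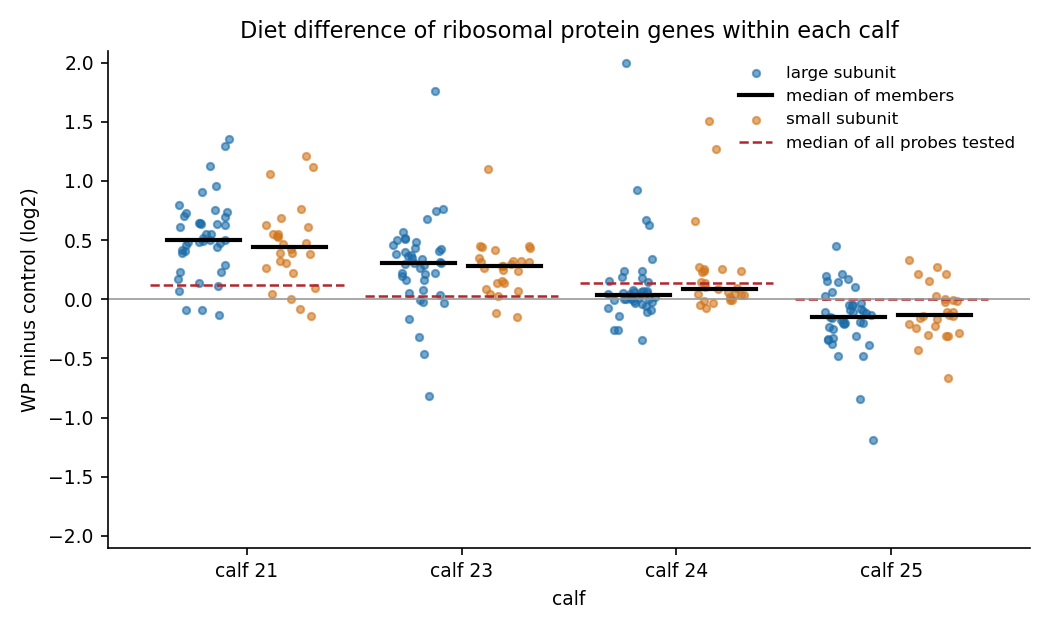
WP minus control difference (log2) of each of 67 ribosomal protein genes within each calf; points are genes of the large and small subunit, black bars their medians, dashed lines the median of all 10236 probes tested. The medians go from about 0.49 in calf 21 to about -0.14 in calf 25, and 1 value above 2 is drawn at the edge.

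None of the 67 members passed an adjusted p of 0.05 in limma, and 0 (0.0%) of all 10236 probes did. The lowest adjusted value among the members was 0.658. Without adjustment, 3 members were higher on WP at p under 0.05 (background 5.24%) and 0 were lower (background 1.75%). Higher in 4 of 4 calves were 9 members (background 11.9%), among them RPL13, RPL19, RPL22, RPL26, RPL29, RPS19, RPS25 and RPS29. Lower in 4 of 4 calves were 0 (background 5.39%). These counts are near or below the background shares. Over all probes, 536 were higher and 179 lower at that unadjusted threshold, against 192 and 336 with quantile scaling, 263 and 411 with cyclic loess and 1134 and 293 with normexp background correction. The arrays of the diets did not overlap for 1 member, RPS29, with all WP arrays above all control arrays (background 3.65%), and for 0 in the other direction (background 1.19%).

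In the small subunit, the 8 tested proteins of the 40S head had positive differences, with a median of 0.32 log2. RPS19 sits in the head and is the gene most often mutated in Diamond-Blackfan anaemia, an inherited failure of red cell formation. It stood at 8.24, 8.33, 8.07 and 8.35 log2 on the control arrays of calves 21, 23, 24 and 25 and at 8.56, 8.78, 8.34 and 8.56 on their WP arrays. Each calf was higher on WP, and the groups overlapped only where control 25 met WP 24. The mean difference was 0.32 ± 0.10 (SD, n = 4 calves; SE of the fit 0.11; unadjusted p = 0.0381, adjusted p = 0.658 in limma). It was 0.47 within slide row 1, 0.16 within row 2 and 0.11 with quantile scaling. Its adjusted p ranged from 0.346 to 0.938 over the alternatives, and so did that of RPS25 and RPS29.

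RPS25, a head protein that internal ribosome entry sites of viral mRNAs need, stood at 6.98, 7.18, 7.02 and 7.47 on control and 7.45, 7.63, 7.27 and 7.63 on WP. Again each calf was higher on WP, while control 25 exceeded WP 21 and WP 24. The mean was 0.33 ± 0.15 (SD, n = 4; unadjusted p = 0.0423, adjusted p = 0.658 in limma), with 0.29 within row 1 and 0.37 within row 2. Its RefSeq probe (chr15:30116111-30116170, minus strand) reads 1 stretch of the gene.
RPS25 RefSeq probe: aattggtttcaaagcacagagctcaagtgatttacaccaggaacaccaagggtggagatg

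RPS29, a small zinc-binding head protein, was read through a dim EST probe of 17.9 units. It stood at -4.32, -3.83, -3.79 and -3.95 on control and -3.56, -3.68, -2.52 and -3.62 on WP. The groups did not overlap, and the WP array of calf 24, the one with raised control spots, lay far above the other WP arrays. The mean was 0.63 ± 0.50 (SD, n = 4; unadjusted p = 0.0326, adjusted p = 0.658 in limma), and 0.42 without calf 24. The part of that array's offset in the result was not tested. With normexp background correction it was 0.34 and with quantile scaling 0.28. RPS10, another head protein, gave 0.26 ± 0.23 and RPS28 0.21 ± 0.32.

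RPS12, also of the head, gave 0.38. Of the 14 proteins on the head list, 6 were not tested, among them RPS3, RPS15, RPS16, RPS18 and RPS27A.

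Other small subunit proteins had smaller differences. RPS27, a zinc-finger protein, stood at 6.75, 7.41, 6.98 and 7.35 on control and 7.18, 7.55, 7.23 and 7.33 on WP, a mean of 0.20 ± 0.19 (SD, n = 4). RPS9, which helps place the decoding site, gave 0.09 ± 0.17 (0.045 without calf 24) from 6.09, 6.51, 6.10 and 6.29 on control and 6.31, 6.56, 6.33 and 6.15 on WP. RPS14, a protein of the platform whose loss marks the 5q- syndrome, gave 0.01 ± 0.13 from 6.4, 6.91, 6.59 and 6.86 on control and 6.44, 6.94, 6.74 and 6.69 on WP. These 3 overlapped between the diets and none was the same way in 4 of 4 calves. RPSA gave -0.06 ± 0.23, and -0.17 without calf 24. RPS24 (EST probe, 82.3 units) stood at -1.68, -1.81, -1.78 and -1.66 on control and -1.82, -1.52, -1.54 and -1.39 on WP, lower on WP only in calf 21, and had r = 0.11 with the median profile.

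In the large subunit, the 3 members of smallest p among those higher in all calves were RPL22, RPL19 and RPL29. RPL22, which binds small RNAs and is not needed for translation in general, stood at 6.06, 6.45, 6.39 and 6.36 on control and 6.70, 6.76, 6.44 and 6.50 on WP. The difference was largest in calf 21, and control 23 exceeded WP 24. The mean was 0.28 ± 0.26 (SD, n = 4; unadjusted p = 0.108, adjusted p = 0.658 in limma). Its probe (chr16:47999896-47999955, plus strand) was designed from another mRNA record.
RPL22 probe: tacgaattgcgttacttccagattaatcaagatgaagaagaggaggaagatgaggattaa

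RPL19, at the rim of the exit tunnel and in a bridge between the subunits, stood at 7.62, 7.85, 7.74 and 7.94 on control and 8.06, 8.20, 7.80 and 8.04 on WP. It gave 0.24 ± 0.19 (SD, n = 4; unadjusted p = 0.121 in limma), with overlap at control 23 and control 25 against WP 24. RPL29, a peripheral protein, stood at 7.94, 8.16, 8.05 and 8.04 on control and 8.34, 8.38, 8.08 and 8.19 on WP, or 0.20 ± 0.15 (SD, n = 4), with control 23 above WP 24. Of the 8 exit tunnel proteins 7 were tested and all 7 had positive differences, from 0.05 (RPL31) to 0.28 (RPL22), with a median of 0.21.

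The P stalk recruits the elongation factors. RPLP0, its base and a common reference gene for PCR, stood at 0.59, 0.69, 0.99 and 1.47 on control and 1.54, 1.45, 1.06 and 1.42 on WP. The control arrays of calves 21 and 23 were the lowest, and control 25 lay among the WP arrays. Calf 21 differed by 0.96, calf 23 by 0.76, calf 24 by 0.07 and calf 25 by -0.05, a mean of 0.43 ± 0.50 (SD, n = 4; unadjusted p = 0.1, adjusted p = 0.658 in limma). Its probe, from the mRNA series named above, read 570 units. RPLP1, one of the stalk's acidic proteins, stood at 7.70, 7.88, 7.87 and 8.09 on control and 8.40, 8.30, 7.87 and 7.98 on WP, or 0.25 ± 0.37. RPLP2 stood at 1.32, 1.64, 1.38 and 1.97 on control and 1.97, 1.80, 1.32 and 1.87 on WP, or 0.16 ± 0.34. RPL12, at the stalk's foot, gave 0.18. All 4 were positive in calves 21 and 23, and 0 of 4 were positive in calf 25.

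RPL5 and RPL11 carry 5S rRNA into the ribosome and, unbound, restrain MDM2 and so steady p53. RPL5 stood at 3.30, 3.46, 3.48 and 3.68 on control and 3.76, 3.72, 3.53 and 3.51 on WP, or 0.15 ± 0.27. RPL11 stood at 7.79, 7.99, 7.92 and 8.20 on control and 8.34, 8.36, 7.93 and 8.05 on WP, or 0.19 ± 0.32 (SD, n = 4). Both followed the shared profile closely, with r of 0.97 and 0.98. RPL3, next to the peptidyl transferase centre, stood at -1.51, -1.21, -1.01 and -0.36 on control and -0.39, -0.64, -0.77 and -0.75 on WP, or 0.38 ± 0.63. RPL10, which joins last and closes the tRNA site, stood at 0.32, 0.42, 0.55 and 1.01 on control and 0.97, 0.90, 0.52 and 0.80 on WP, or 0.22 ± 0.40. The 4 genes were higher on WP in calves 21 and 23 and lower in calf 25.

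The paralogs are second genes for the same place in the ribosome. RPL22L1, the partner of RPL22, stood at 2.21, 2.80, 3.28 and 3.17 on control and 3.12, 3.55, 2.94 and 2.33 on WP. Its difference was 0.91 for calf 21, 0.75 for calf 23, -0.34 for calf 24 and -0.84 for calf 25, a mean of 0.12 ± 0.85 (SD, n = 4; adjusted p = 0.916 in limma), or 0.27 without calf 24. Its SD over 8 arrays was 0.46 log2, against 0.22 for RPL22. RPS27L, a p53-induced partner of RPS27, stood at -5.09, -4.84, -4.70 and -4.27 on control and -3.98, -4.99, -3.20 and -4.56 on WP, or 0.55 ± 0.90, and was above background on 7 of 8 arrays. Without calf 24 its difference was 0.23. RPL26L1 gave -0.0010 ± 0.12 and RPS4Y1 -0.04 ± 0.18. As a set the 4 paralogs had a median of 0.06, with 2 positive and 2 negative.

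The large subunit genes of largest SD over the 8 arrays, RPL8 and RPL31, had dim probes. RPL8 (EST probe, 7.99 units, above background on 6 arrays) stood at -5.91, -5.25, -5.25 and -4.11 on control and -4.56, -3.49, -2.21 and -5.30 on WP. The mean of 1.24 ± 1.77 (SD, n = 4; adjusted p = 0.659 in limma) rests on calves 21, 23 and 24, and the WP array of calf 24 was the highest. Without calf 24 it was 0.64. RPL31 (10.9 units, above background on 6 arrays) gave 0.05 ± 0.67, from -4.93, -4.55, -3.83 and -4.78 on control and -4.13, -5.37, -3.82 and -4.56 on WP. RPL36A (20.7 units) gave 0.23 ± 0.27, from -3.33, -3.94, -3.06 and -3.55 on control and -3.46, -3.43, -2.72 and -3.35 on WP. RPL31 and RPL36A had the lowest r with the median profile, -0.26 and -0.24. RPL36A and RPL31 turned sign with quantile scaling, to -0.14 and -0.65.

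Of 18 genes linked to Diamond-Blackfan anaemia, 17 were tested, 16 with positive differences and a median of 0.20. RPL15, one of them, was the lowest member of all at -0.12 ± 0.15 (SD, n = 4), from 5.20, 5.85, 5.46 and 5.71 on control and 5.11, 5.89, 5.35 and 5.39 on WP. Between calves, RPL15 was the 1 member at an unadjusted p under 0.05 (background 4.98%), and 0 members passed after adjustment (background 0.00977%). The F test across all probes in limma gave RPL15 an adjusted p of 0.931. Its arrays of calf 23 were the highest on both diets. No other member reached that threshold between calves.

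The slide row was read from the same within-calf differences. With calf and diet in the fit, the row term contrasts the differences of calves 21 and 23 with those of calves 24 and 25. In the fit with row as a second block, 59 of 67 had higher values in row 1 (45.6% of all probes did), with a median row difference of 0.20 log2 against -0.03 over all probes. At an unadjusted p under 0.05, 9 were higher in row 1 (background 5.6%) and 1, RPL39, was lower (background 7.3%), and 0 members and 0.0% of probes passed the adjusted threshold. RPL22L1 had the largest row difference among those 9, at 0.71 (unadjusted p = 0.00594 in limma). Row 1 holds the WP arrays of calves 21 and 23, whose median differences were the highest, and the control array of calf 25, whose median difference was negative. Calf 24 also has its control array in row 1, and its median difference was 0.04. The medians over all probes were 0.12, 0.03, 0.14 and -0.00024 in calves 21, 23, 24 and 25. A row effect and a diet difference that varies between calves cannot be told apart in this design, and the part of each was not tested. The median diet difference within row 1 was 0.22 (57 of 67 positive) and within row 2 0.14 (56 of 67), each comparing 2 calves with 2 others.

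The shared profile ran opposite to the scaling constant. Over 8 arrays the members' median had r = -0.951 and rho = -0.905 with the log2 75th percentile of the array (r = -0.949 without the 2 arrays farthest from the median), which ranged from 199 to 322 units. The points share the constant itself, since it was subtracted from every level. Without any scaling, the 55 members brighter than the 75th percentile correlated with it at r = 0.837: they were brighter on brighter arrays, but over a span of 0.32 log2, while the log2 75th percentile spanned from 7.64 to 8.33. Unscaled, the median diet difference of the 67 genes was -0.07 (15 positive), and by calf -0.21, -0.21, 0.06 and 0.01. The median over all probes was then -0.17, below that of the members, as it was with the scaling.

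**Figure D5:**
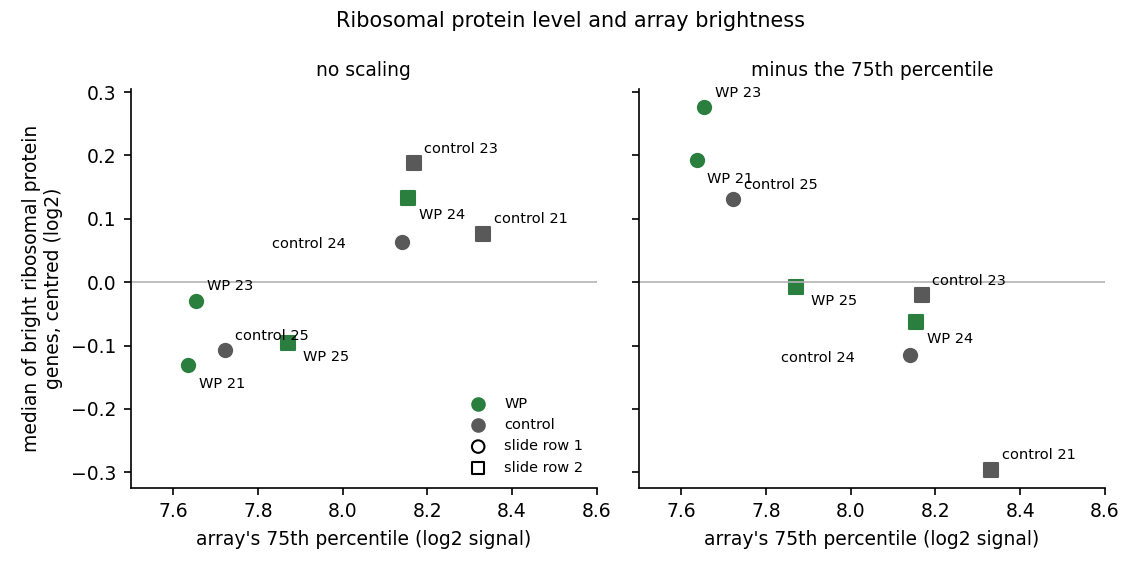
Median of the 55 bright ribosomal protein genes on each array (log2, centred over arrays) against the array's log2 75th percentile, without scaling (left) and after subtracting the 75th percentile (right); colour gives the diet, shape the slide row. Left, levels go up with the percentile (r = 0.837), and right, they go down (r = -0.934).

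The sign of the members' median thus depended on the scaling. Scaled to 189 other probes at least as bright as the lower quartile of the bright members, the median was 0.17 with 58 of 67 positive, and by calf 0.27, 0.23, 0.09 and 0.002. Those 189 probes themselves had a median of 0.03 under the main scaling. Cyclic loess gave 0.17 (57 positive, all probes -0.004) and quantile scaling 0.06 (50 positive, all probes -0.02). The members' share of the summed signal of all probes is another scaling, to the array's total. It went from 15.0% on control to 19.0% on WP in calf 21, from 16.6% to 19.6% in calf 23, from 16.5% to 17.4% in calf 24 and from 17.7% to 17.3% in calf 25. The share was higher on WP in 3 of 4 calves, and the control and WP ranges overlapped.

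Other genes of protein synthesis were counted from fixed lists, each with 0 members past the adjusted threshold. Ribosomal proteins that carry other names followed the members: FAU gave 0.12 and RACK1 0.58, and the median profile of the 3 tested genes of that list had r = 0.97 with that of the members. Of 8 other TOP mRNAs tested, 7 were positive, with a median of 0.09 and r = 0.81. They include NACA and BTF3, subunits of the nascent chain complex, at 0.10 and 0.15, and VIM, vimentin, at 0.47. Of 6 elongation factors 4 were positive, with a median of 0.06. EEF1A1, which delivers tRNA, gave 0.07, EEF2, the translocase, 0.16 and EEF1B2 0.24.

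Factors that make the ribosome or act beside it had medians between -0.04 and 0.11. Initiation factors had 16 of 33 positive and a median of -0.01. Ribosome assembly factors had 38 of 68 positive and a median of 0.03. At unadjusted p under 0.05 stood 2 of these 68, RRS1 at 0.42 and HEATR1 at 0.41, both higher, which is below the background of 5.24%. RNA polymerase I and III genes had 19 of 25 positive and a median of 0.11, with UBTF, the activator of rRNA genes, at 0.47 (unadjusted p = 0.00955 in limma). TOR signalling genes had 9 of 14 positive and a median of 0.04. Aminoacyl-tRNA synthetases, which charge tRNAs, had 8 of 21 positive, a median of -0.04 and a profile opposite to that of the members (r = -0.83). Mitochondrial ribosomal proteins had 24 of 72 positive and a median of -0.03. Rescue and stalling factors had 5 of 13 positive (EIF2AK2, the RNA-activated kinase PKR, at -0.49) and p53 targets 4 of 7 (MDM2 at 0.35).

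The tissue label was read against marker genes. The stratified epithelium markers KRT5, KRT14 and KRT15 lay between 4.92 and 7.2 log2 above the 75th percentile on all 8 arrays. The 8 tested epithelial markers summed to 252 to 333 on control and 233 to 349 on WP arrays (multiples of the 75th percentile). Of these 8 genes 3 were higher and 5 lower on WP, with a median difference of -0.04 (range -1.07 to 0.50). Fibroblast markers summed to 9.76 to 38.9 on control and 17.8 to 42.5 on WP, with 6 of 7 higher on WP and a median difference of 0.66. Endothelial markers summed to 1.54 to 2.59 and 1.52 to 2.97, with 4 of 4 higher on WP and a median of 0.51, and smooth muscle markers to 5.81 to 9.71 and 7.03 to 10.1, with 3 of 3 higher and a median of 0.46. These medians exceed the members' 0.19, but the counts are of genes and the calves differed. In calves 21, 23, 24 and 25 the fibroblast medians were -0.27, 0.39, 1.12 and 1.02, and the endothelial ones -0.52, 1.61, 0.43 and 0.48. Those of smooth muscle were 0.24, 0.80, 0.32 and 0.0077. The fibroblast, endothelial and smooth muscle profiles had r of -0.26, -0.05 and 0.17 with that of the ribosomal proteins. Macrophage markers summed to 3.19 to 8.61 on control and 3.01 to 6.07 on WP, T and NK cell markers to 0.293 to 1.02 and 0.363 to 0.741, and B cell markers to 2.16 to 4.4 and 2.1 to 2.29. Not tested here were KRT1, KRT4, KRT13, CDH5, CNN1, DES, CD163, CD3E, CD79A and MS4A1, so the defining B cell markers are not among those summed. Macrophage and T cell profiles ran opposite to that of the ribosomal proteins (r = -0.71 and -0.65), and the epithelial one went with it (r = 0.56, and 0.05 without the 2 arrays farthest from the median). The part of cell makeup in the members' profile was not tested. In a bulk sample, fewer cells of a type and less RNA per cell cannot be told apart.

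Outside these lists, the genes whose profile over 8 arrays was most like that of the members were KMT2E, a chromatin regulator (r = 0.980), ND1, a mitochondrially encoded subunit of complex I (0.979), AP4M1, an adaptor subunit of vesicle coats (0.972), SNAI2, a transcription factor of basal epithelial cells (0.971), and BLTP3B (0.970). Most opposite were TNFSF9, a ligand of the TNF family (-0.972), PSMC4 and PSMC2, ATPases of the 26S proteasome (-0.970 and -0.945), CTH, an enzyme of cysteine synthesis (-0.964), and EMC8 (-0.948). These 10 were picked from 10236 probes for that r, which is a description of 8 arrays. PSMC4 stood at 3.39, 3.06, 3.17 and 3.01 on control and 2.86, 2.83, 3.09 and 3.1 on WP in calves 21, 23, 24 and 25. It was lower on WP in calves 21, 23 and 24 and higher in calf 25.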

How the data were processed

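The authors deposited 1 scanner file per array with spot brightness as intensity (processed signal, already background-corrected by the scanner software) and per-spot flags. The file headers name Agilent Feature Extraction 11.0.1.1, while the submitters' processing notes give version 9.5. Amplification from 500 ng RNA and Cy3 labelling are stated per the labels' protocols. The series' value table, as deposited, is on a log2 scale, matched the log2 processed signal minus a constant per array, and served as an alternative.

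Control spots and outlier flags were left out, spots of a probe averaged, and each array's 75th percentile subtracted. Probes above background on at least 4 arrays (10236) were fitted with limma 3.58.1 in R 4.3.3, calf as a block, Benjamini-Hochberg over all of them. The pairing comes from the labels, which give the same calf number on both diets. The 2 arrays of 1 calf, each taken as its deviation from its diet's mean, correlated at 0.0090, 0.195, 0.060 and 0.048 for calves 21, 23, 24 and 25. The fit was tested on simulated data, where it recovered few of the smallest changes put in. Arrays have no depth; their number limits precision. The replicates are calves.

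The members, gene lists and tests were chosen with earlier results of these data known. Members named with every array were those of smallest p in 4 of 4 calves (3 per subunit and direction), the 2 of largest SD and the 2 of lowest r with the median profile per subunit, and 21 chosen for role or reference use; RPL13A, RPL15, RPL39, RPS2, RPS10, RPS12, RPS28, RPL12, RPL26L1, RPS4Y1 and the other members and list genes named were added after their values were seen. Gene names were updated through RefSeq (assembly ARS-UCD2.0), while positions (UMD 3.1) and probe sequences came from the scanner files. Alternatives covered background correction, scaling, the value table, filters, blocks, slide row, prior, probe choice and each calf left out. Runs without scaling, scaled to equally bright probes, and on bright, dim or RefSeq-designed members were chosen after seeing the data. Values of some single genes are not reported here.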

Additional observations from a re-analysis of the deposited data

Results flagged for a closer look

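Of 50 groups of 4 arrays examined among the named members, 2 had an array far from the other 3 by Dixon's ratio of gap to range; chance alone gives about 1 in 20. RPL36A on the WP diet stood at -2.72 log2 on the array of calf 24, with the nearest other array at -3.35 (ratio 0.852). RPS29 on the WP diet stood at -2.52 on the same array, with the nearest other at -3.56 (ratio 0.90). Both were read through dim EST probes.

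Among control probes, which the comparisons do not use, the E1A probes on the WP array of calf 24 read 40.7 units, against 1.36 to 1.97 units on the other arrays.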

How the results depend on the processing

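The members' median diet difference (0.19) stayed positive under each planned setting, from 0.058 with quantile scaling to 0.218 within row 1, and from 0.080 without calf 21 to 0.284 without calf 25. Without scaling, added after seeing the data, it was -0.070. Without the replicate block it was again 0.19, which the balanced design fixes in advance. That fit called 0 members and changed no other call. Large minus small (0.012; 0.0052 to 0.024 with a calf left out) was -0.0016 with normexp, -0.0037 without the filter and -0.010 within row 1. Co-variation (0.54) was 0.167 with quantile scaling, 0.430 with cyclic loess, 0.381 without the filter, 0.631 without the WP array of calf 24, 0.744 with calf means removed and 0.482 to 0.667 with a calf left out. Between calves, 1 probe passed, against 20 with normexp, 17 with the trend and robust prior, 2 on probes above background on all arrays, and 0 without the filter or with row as a block. Members called stayed at 0 throughout, with 0 to 5 higher at unadjusted p under 0.05.

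Named members turned sign in 31 comparisons with the main value and kept it in 350. Many of the 350 could not turn. In this balanced design, dropping the calf block, adding the slide row, or changing the prior or the filter leaves a member's difference as it was. These settings gave 24 kept signs each, or 21 for probes above background on all 8 arrays, so the 350 is no measure of stability. Without scaling 14 turned: RPL10 -0.037, RPL11 -0.067, RPL19 -0.024, RPL22L1 -0.14, RPL29 -0.057, RPL31 -0.21, RPL36A -0.033, RPL5 -0.11, RPLP1 -0.011, RPLP2 -0.098, RPS14 -0.25, RPS24 -0.099, RPS27 -0.061 and RPS9 -0.17. With quantile scaling RPL31 was -0.65, RPL36A -0.14, RPS14 -0.030 and RPS27L -0.024; with cyclic loess RPL31 was -0.50 and RPL36A -0.038; with normexp RPS14 was -0.049. Within row 1 RPL31 was -0.45, RPL36A -0.14 and RPS14 -0.037, and within row 2 RPS9 was -0.063. With a calf left out, RPL22L1 ran from -0.14 (without calf 21) to 0.44 (and was -0.093 without calf 23), RPL31 from -0.20 (without calf 21) to 0.34 (and was -0.0038 without calf 25), RPS14 from -0.032 (without calf 24) to 0.072, and RPSA was 0.018 without calf 25. The cause was not tested.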
